A study of Mus musculus with 8 samples.

Results

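The genes described here are 36 members of the sterol regulatory element-binding protein (SREBP) programme. They were taken by name from a table of 23234 gene symbols, and the names were listed with earlier results of these data known. In 3 arms by role they comprise 17 enzymes of cholesterol synthesis, 8 genes of sterol sensing and transport, and 11 enzymes that make, desaturate or elongate fatty acids. All 36 were in the table and all 36 passed the filter on low values (at least 1 FPKM in at least 2 libraries).

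RNA was sequenced from donor germinal centre B cells of mouse spleen in 8 libraries, as 4 groups of 2. The dKO cells are Bach2(f/f) together with Prdm1(f/f), and the sKO cells are Bach2(+/+) with the same Prdm1(f/f) alleles, all on C57BL/6. Both genotypes also carry ERT2cre(KI/+), a tamoxifen-inducible Cre, and B1-8hi(KI/+), an antigen receptor knock-in that binds NP, and no group with unfloxed Prdm1 is described here. Naive donor B cells were moved into wild-type CD45.1/45.2 hosts, which keep their own B cells. The hosts received tamoxifen (3 mg for 3 days) and were immunized with NP-CGG in alum. NP-binding donor cells positive for GL7 and negative for CD38 were sorted on day 10 from spleens of 5 recipients combined, as light zone (LZ, CD86hi CXCR4lo) or dark zone (DZ, CD86lo CXCR4hi) cells. Mouse age and sex are not given in the sources used here. The labels do not say whether the 2 libraries of a group came from separate pools of mice, and the spread behind each p-value may therefore be technical. In pooled cells, fewer cells of a type and less RNA per cell cannot be told apart.

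Cholesterol and fatty acids build the membranes of dividing cells. SREBP proteins are held in the endoplasmic reticulum by SCAP and INSIG when sterol is plentiful. When sterol is scarce they are carried to the Golgi, cut, and enter the nucleus to switch on the synthesis genes. SREBP2 mainly drives sterol genes and SREBP1 mainly drives fatty acid genes. For sterol, liver X receptors (LXR), which sense oxidised sterols, act in the other direction by switching on the sterol exporters ABCA1 and ABCG1. Light zone cells receive antigen and T cell help, and dark zone cells divide. BACH2 is a repressor in B cells, and PRDM1 (Blimp-1) drives plasma cell formation.

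Promoter windows are shown for the sterol enzymes that were higher in dKO in both zones and have a window, for Fasn as the fatty acid synthase gene, and for Abca1, the member lower in dKO in both zones. Each window runs from 250 bases before to 50 after the annotated start, from RefSeq on GRCm38.p6, and is written 5′ to 3′ along the gene. Capitals mark a sterol regulatory element (TCACNCCAC, or its shorter form CACCCCAC, which the longer form can contain) and the CCAAT box bound by NF-Y, on either strand.
Hmgcs1 promoter, chr13:119690101-119690400, plus strand: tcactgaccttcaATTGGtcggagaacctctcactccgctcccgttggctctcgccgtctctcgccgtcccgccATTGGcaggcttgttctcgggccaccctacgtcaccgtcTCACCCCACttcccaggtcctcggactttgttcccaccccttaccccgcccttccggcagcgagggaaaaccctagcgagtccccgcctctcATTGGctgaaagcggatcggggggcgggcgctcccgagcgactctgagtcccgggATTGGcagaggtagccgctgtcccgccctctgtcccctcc
Idi1 promoter, chr13:8885356-8885655, plus strand: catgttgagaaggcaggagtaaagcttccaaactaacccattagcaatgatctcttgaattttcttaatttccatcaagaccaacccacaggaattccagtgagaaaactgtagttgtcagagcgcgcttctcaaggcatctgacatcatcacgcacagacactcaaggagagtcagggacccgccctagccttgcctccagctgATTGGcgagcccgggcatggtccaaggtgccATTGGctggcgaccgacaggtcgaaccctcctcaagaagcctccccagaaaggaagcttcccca
Lss promoter, chr10:76531355-76531654, plus strand: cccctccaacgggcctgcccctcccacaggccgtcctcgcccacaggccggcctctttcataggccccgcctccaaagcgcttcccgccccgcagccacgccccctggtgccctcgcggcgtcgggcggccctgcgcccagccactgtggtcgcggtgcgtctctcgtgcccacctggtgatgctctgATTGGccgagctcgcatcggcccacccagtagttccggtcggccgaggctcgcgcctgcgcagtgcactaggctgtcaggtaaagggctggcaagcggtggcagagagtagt
Cyp51 promoter, chr5:4104648-4104947, minus strand: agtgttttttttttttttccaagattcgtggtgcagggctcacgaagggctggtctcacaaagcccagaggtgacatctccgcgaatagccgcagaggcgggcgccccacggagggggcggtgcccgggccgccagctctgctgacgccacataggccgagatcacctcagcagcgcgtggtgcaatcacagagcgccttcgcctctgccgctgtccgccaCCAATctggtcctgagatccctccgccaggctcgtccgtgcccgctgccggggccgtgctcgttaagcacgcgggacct
Sc4mol promoter, chr8:64733529-64733828, minus strand: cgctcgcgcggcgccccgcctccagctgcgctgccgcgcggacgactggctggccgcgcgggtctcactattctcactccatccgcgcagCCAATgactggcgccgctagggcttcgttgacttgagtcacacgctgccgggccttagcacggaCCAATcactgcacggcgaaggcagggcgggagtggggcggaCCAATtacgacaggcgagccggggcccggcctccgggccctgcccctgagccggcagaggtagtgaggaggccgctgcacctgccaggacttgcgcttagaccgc
Fasn promoter, chr11:120824498-120824797, minus strand: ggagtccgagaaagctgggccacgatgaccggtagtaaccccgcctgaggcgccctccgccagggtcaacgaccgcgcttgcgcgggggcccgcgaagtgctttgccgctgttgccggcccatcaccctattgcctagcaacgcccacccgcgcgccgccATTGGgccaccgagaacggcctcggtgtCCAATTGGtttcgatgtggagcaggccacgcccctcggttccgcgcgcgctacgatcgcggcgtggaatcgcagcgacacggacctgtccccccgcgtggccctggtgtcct
Abca1 promoter, chr4:53159846-53160145, minus strand: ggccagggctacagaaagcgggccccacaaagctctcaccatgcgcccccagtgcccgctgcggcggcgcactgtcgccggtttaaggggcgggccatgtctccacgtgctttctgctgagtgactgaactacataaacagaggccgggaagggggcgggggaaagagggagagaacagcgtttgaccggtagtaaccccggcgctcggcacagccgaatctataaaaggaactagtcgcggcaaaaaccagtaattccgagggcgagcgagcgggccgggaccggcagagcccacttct

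Of the 36 members, 28 had a window, Sc4mol under its RefSeq name Msmo1. Fdps, Fdft1, Sqle, Stard4, Scd1, Scd2, Fads1 and Abcg1 are named without one. The longer sterol element was found in 1 of 28 members, Hmgcs1, beginning 137 bases before the start (position -137), and in 1.34% of the tested genes that have a window. CACCCCAC was in 2 members (Acat2 and Hmgcs1) and in 3.65% of tested genes. The CCAAT box was in 21 of 28 members (75.0%) and in 44.0% of tested genes. By arm it was in 13 of 14 sterol enzymes and in 5 of 8 fatty acid enzymes. The Sp1 box GGGCGG was in 22 members (78.6%) and in 69.4% of tested genes, and the E-box CACGTG in 6 members (21.4%) and in 12.4%. Of the motifs associated with BACH factors, TGCTGANTC was in 0 members and in 1.00% of tested genes. TGANTCA was in 2 members, Dhcr7 and Sc4mol, and in 5.57% of tested genes. All motifs were searched on both strands. They are matches of letters in short windows and not measured binding sites.

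Expression is given as FPKM, a fragment count divided by transcript length and by the mapped fragments of its library. Its sum per library was 502214 to 540885, 10192 to 10250 genes reached 1 FPKM, and sequencing depth is not known from these values. The 8 libraries held high levels of B cell and germinal centre markers (summed FPKM 3772 to 3790 in dKO LZ, 4253 to 4361 in sKO LZ, 3375 to 3412 in dKO DZ and 3797 to 3943 in sKO DZ). The LZ markers Cd86 and Cd83 together were 3.60-fold higher in LZ than in DZ in dKO and 3.29-fold higher in sKO. Bach2 stood at 64.5 and 62.7 FPKM in dKO LZ, against 49.8 and 53.4 FPKM in sKO LZ, and at 96.2 and 94.5 FPKM in dKO DZ, against 76.2 and 74.6 FPKM in sKO DZ. It was thus higher in the libraries labelled dKO. A gene-level value also counts exons outside a floxed part, so it does not check the deletion, and dKO and sKO below mean the libraries so labelled. Prdm1 stood at 0.980 and 0.967 FPKM in dKO LZ, against 0.0577 and 0.0184 FPKM in sKO LZ, and at 0.258 and 0.434 FPKM in dKO DZ, against 0.0473 and 0.122 FPKM in sKO DZ.

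Differences are on the log2(FPKM + 1) scale with their standard error (SE), from a limma fit over the 10610 genes tested, and a gene is said to rise or fall where its Benjamini-Hochberg adjusted p is under 0.05. This scale understates the change of genes at low FPKM. Each group has n = 2 libraries, and the 2 genotypes often did not overlap. Over all 10610 tested genes, both dKO libraries were above both sKO libraries for 3874 in LZ and 3428 in DZ. They were below them for 3114 in LZ and 2787 in DZ. In LZ, 19 of the 36 members rose in dKO and 3 fell, while 18.4% of all tested genes rose and 12.7% fell. Abcg1 is 1 of those 3, and it passed the filter only through the group where it was high. In DZ, 11 members rose and 1 fell, while 6.63% of all genes rose and 5.23% fell. The median difference of the members was 0.22 in LZ, against 0.02 over all genes, and 0.18 in DZ, against 0.01 over all genes. Over all genes the LZ split was 1948 higher and 1351 lower. It became 1549 higher and 1855 lower under upper quartile scaling, with 17 members higher and 3 lower.

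**Figure D1:**
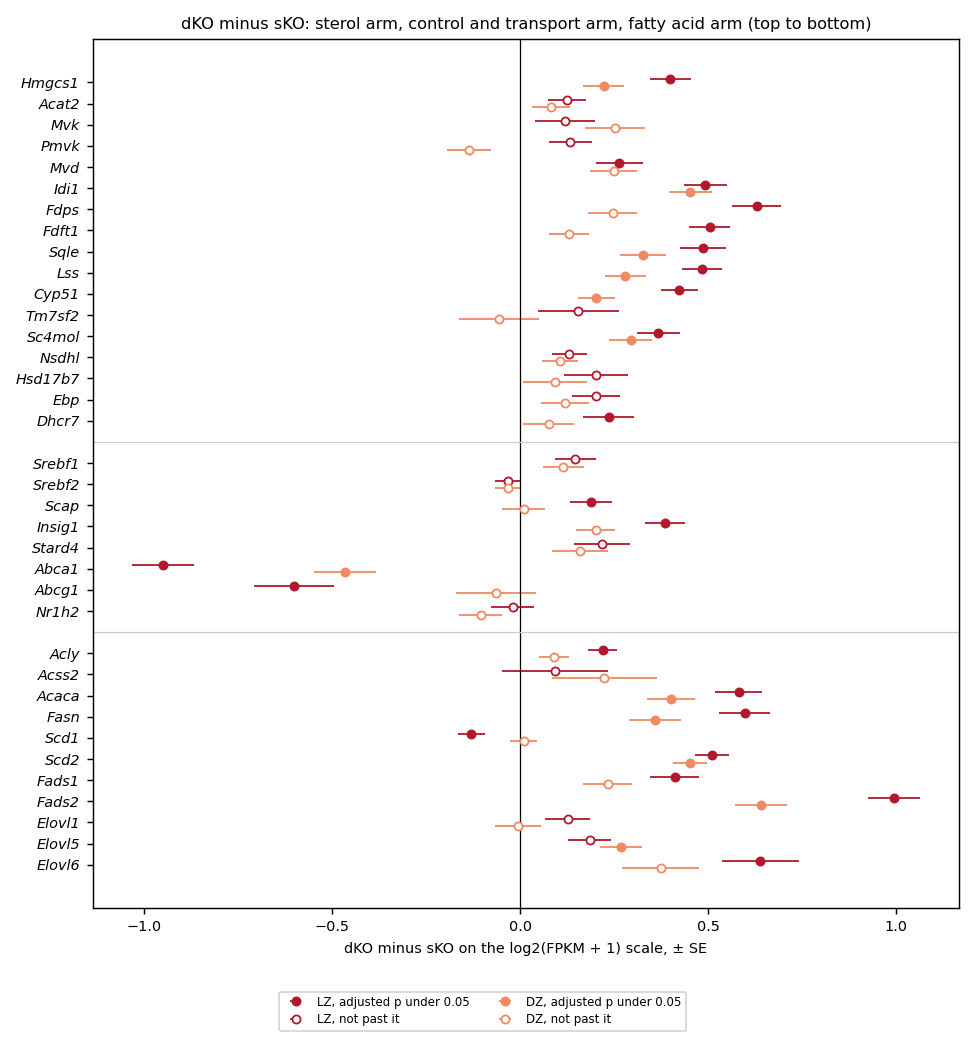
Difference dKO minus sKO on the log2(FPKM + 1) scale (x axis, point ± SE) for the 36 members (y axis), in LZ and in DZ, n = 2 libraries per group. Filled points are past an adjusted p of 0.05. All 17 sterol enzymes lie right of 0 in LZ, and Abca1 lies left of 0 in both zones. Of all 10610 tested genes, 5710 were positive in LZ and 5689 in DZ.

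Of the 17 sterol enzymes, 10 rose in dKO in LZ, Hmgcs1, Mvd, Idi1, Fdps, Fdft1, Sqle, Lss, Cyp51, Sc4mol and Dhcr7, and 0 fell. Over all tested genes, 18.4% rose and 12.7% fell in LZ. The other 7 sterol enzymes, Acat2, Mvk, Pmvk, Tm7sf2, Nsdhl, Hsd17b7 and Ebp, did not pass the test. The median difference was 0.26. Their summed level was 556 to 569.7 FPKM in dKO LZ, against 418 to 428 FPKM in sKO LZ, a ratio of 1.33. In DZ, 6 of 17 rose and 0 fell, where 6.63% of all tested genes rose and 5.23% fell. Of the 17, 15 were positive, against 5689 of all 10610 tested genes, and the median was 0.20. The sum was 412 to 422 FPKM in dKO DZ, against 350.1 to 368 FPKM in sKO DZ, a ratio of 1.16.

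**Figure D2:**
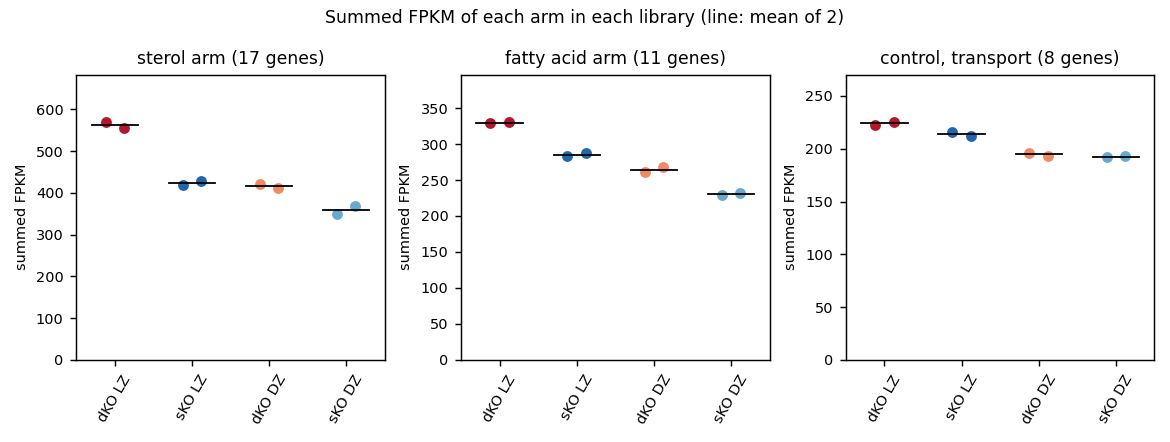
Summed FPKM (y axis, from 0) of the 17 sterol enzymes, the 11 fatty acid enzymes and the 8 control and transport genes in each library (points) of the 4 groups (x axis), with the mean of 2 libraries as a line. The sterol sum is 1.33-fold higher in dKO than in sKO in LZ and 1.16-fold higher in DZ.

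The pathway begins with acetyl-CoA units. Acat2, the thiolase of the first step, was at 28.8 and 30.6 FPKM in dKO LZ, against 26.6 and 27.6 FPKM in sKO LZ, and at 37.4 and 35.1 FPKM in dKO DZ, against 34.3 and 34.0 FPKM in sKO DZ. Its differences of 0.13 in LZ and 0.08 in DZ did not pass the test. Acat2 shares 97.7% identity over 1477 bases with the neighbouring copy Acat3, which was 0.23 higher in dKO LZ, so reads could be split between them. Hmgcs1, the HMG-CoA synthase, was at 33.5 and 34.9 FPKM in dKO LZ, against 24.7 and 26.6 FPKM in sKO LZ. It was at 25.3 and 24.0 FPKM in dKO DZ, against 20.6 and 21.4 FPKM in sKO DZ. Its libraries of the 2 genotypes did not overlap in either zone. It rose by 0.40 ± 0.054 in LZ (adjusted p = 0.00346) and by 0.22 ± 0.054 in DZ (adjusted p = 0.0481).

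The mevalonate kinases and the decarboxylase follow. Mvk ranged from 6.51 to 8.73 FPKM over all libraries, and its differences of 0.12 in LZ and 0.25 in DZ did not pass the test. Pmvk was at 40.2 and 39.2 FPKM in dKO LZ, against 37.1 and 35.0 FPKM in sKO LZ, and at 32.7 and 31.2 FPKM in dKO DZ, against 33.6 and 36.8 FPKM in sKO DZ. It lay above sKO in LZ and below it in DZ, and neither difference passed the test (0.13 and -0.14). Mvd, the decarboxylase that yields isopentenyl diphosphate, was at 11.8 and 11.3 FPKM in dKO LZ, against 9.86 and 9.04 FPKM in sKO LZ. It was at 9.47 and 9.86 FPKM in dKO DZ, against 7.77 and 8.18 FPKM in sKO DZ. It rose in LZ (0.26 ± 0.063, adjusted p = 0.0217), and a difference of about the same size in DZ did not pass (0.25 ± 0.063, adjusted p = 0.0519). The LZ call on Mvd did not hold when replicate 2 of sKO LZ or either library of dKO LZ was left out, with adjusted p up to 0.112 over all alternatives.

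Isoprenoid units are then joined into squalene. Idi1, the isomerase, was at 85.3 and 82.2 FPKM in dKO LZ, against 56.2 and 62.5 FPKM in sKO LZ, a ratio of means of 1.41. In DZ it was at 58.5 and 59.0 FPKM in dKO, against 41.9 and 43.5 FPKM in sKO, a ratio of 1.38. It rose in both zones, by 0.49 ± 0.057 in LZ (adjusted p = 0.00216) and 0.45 ± 0.057 in DZ (adjusted p = 0.00838). Fdps, farnesyl diphosphate synthase, had the largest rise of the sterol enzymes in LZ, with 121 and 111 FPKM in dKO LZ, against 72.2 and 77.2 FPKM in sKO LZ (0.63 ± 0.065, adjusted p = 0.00165). Its DZ values were 78.2 and 74.6 FPKM in dKO, against 61.8 and 66.7 FPKM in sKO, a difference of 0.25 ± 0.065 that did not pass (adjusted p = 0.0582). Fdft1, squalene synthase and the first step committed to sterols, was at 19.5 and 20.0 FPKM in dKO LZ, against 14.1 and 13.2 FPKM in sKO LZ. It rose by 0.50 ± 0.054 in LZ (adjusted p = 0.00183). Values in DZ were 13.5 and 14.2 FPKM in dKO, against 12.8 and 12.3 FPKM in sKO, and its difference of 0.13 did not pass. Fdps shares 1124 exonic bases on the same strand with Gm43738, an overlapping protein-coding gene that is not a row of its own here, so the level of Fdps may hold reads of both. Idi1 shares 323 exonic bases with Gm48574 on the opposite strand. Processed pseudogenes at 95% identity or more to Idi1, Fdps and Fdft1 could also share their reads. Fdft1 also overlaps 774 exonic bases of Ctsb on the opposite strand, and whether the libraries kept strand is not given in the sources used here. Ctsb differed by -0.09 in LZ, which did not pass the test.

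Squalene is then closed and trimmed to cholesterol. Sqle, squalene epoxidase, was at 42.8 and 47.7 FPKM in dKO LZ, against 32.6 and 31.3 FPKM in sKO LZ. It was at 34.4 and 33.7 FPKM in dKO DZ, against 26.3 and 27.7 FPKM in sKO DZ. It rose by 0.49 ± 0.060 in LZ (adjusted p = 0.00268) and 0.33 ± 0.060 in DZ (adjusted p = 0.0222). Lss, which closes the rings to lanosterol, was at 14.7 and 15.1 FPKM in dKO LZ, against 10.6 and 10.2 FPKM in sKO LZ, and at 9.79 and 10.3 FPKM in dKO DZ, against 8.29 and 7.91 FPKM in sKO DZ. It rose by 0.48 ± 0.054 in LZ (adjusted p = 0.00201) and 0.28 ± 0.054 in DZ (adjusted p = 0.0245). Both enzymes were thus higher in every dKO library than in either sKO library of the same zone. So were 3874 of the 10610 tested genes in LZ and 3428 in DZ.

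Cyp51, which removes a methyl group from lanosterol, was at 49.0 and 47.4 FPKM in dKO LZ, against 35.2 and 36.2 FPKM in sKO LZ, and at 32.5 and 31.2 FPKM in dKO DZ, against 26.6 and 28.5 FPKM in sKO DZ. Sc4mol, the methylsterol oxidase, was at 57.9 and 53.2 FPKM in dKO LZ, against 42.6 and 43.0 FPKM in sKO LZ, and at 34.4 and 35.0 FPKM in dKO DZ, against 27.0 and 29.3 FPKM in sKO DZ. Cyp51 rose by 0.42 ± 0.049 in LZ (adjusted p = 0.00214) and 0.20 ± 0.049 in DZ (adjusted p = 0.0460). Sc4mol rose by 0.37 ± 0.057 in LZ (adjusted p = 0.00538) and 0.29 ± 0.057 in DZ (adjusted p = 0.0250). Cyp51 shares 166 exonic bases with Akap9 and Lss shares 381 with 4930483K19Rik, each on the opposite strand.

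The late enzymes complete the pathway. Dhcr7, a reductase of the last steps, was at 15.5 and 14.1 FPKM in dKO LZ, against 12.1 and 12.8 FPKM in sKO LZ, and rose by 0.24 ± 0.068 (adjusted p = 0.0407). That call was lost in 13 of 17 alternatives, among them the removal of any 1 library (LZ or DZ), with adjusted p up to 0.189. In DZ Dhcr7 was at 10.3 and 9.50 FPKM in dKO, against 9.15 and 9.50 FPKM in sKO, a difference of 0.08 that did not pass. Nsdhl, of the demethylation complex, was at 16.0 and 16.7 FPKM in dKO LZ, against 15.0 and 14.7 FPKM in sKO LZ, and at 13.9 and 13.3 FPKM in dKO DZ, against 12.6 and 12.5 FPKM in sKO DZ. Ebp, the sterol isomerase, was at 12.8 and 13.8 FPKM in dKO LZ, against 11.8 and 11.0 FPKM in sKO LZ, and at 11.6 and 10.9 FPKM in dKO DZ, against 10.4 and 10.1 FPKM in sKO DZ. Neither passed the genotype test in either zone, with Ebp just outside it in LZ (0.20 ± 0.064, adjusted p = 0.0540). Tm7sf2 (3.85 to 5.00 FPKM over all libraries), a sterol reductase, and Hsd17b7 (5.78 to 8.02 FPKM), a ketoreductase of demethylation, did not pass it either.

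**Figure D3:**
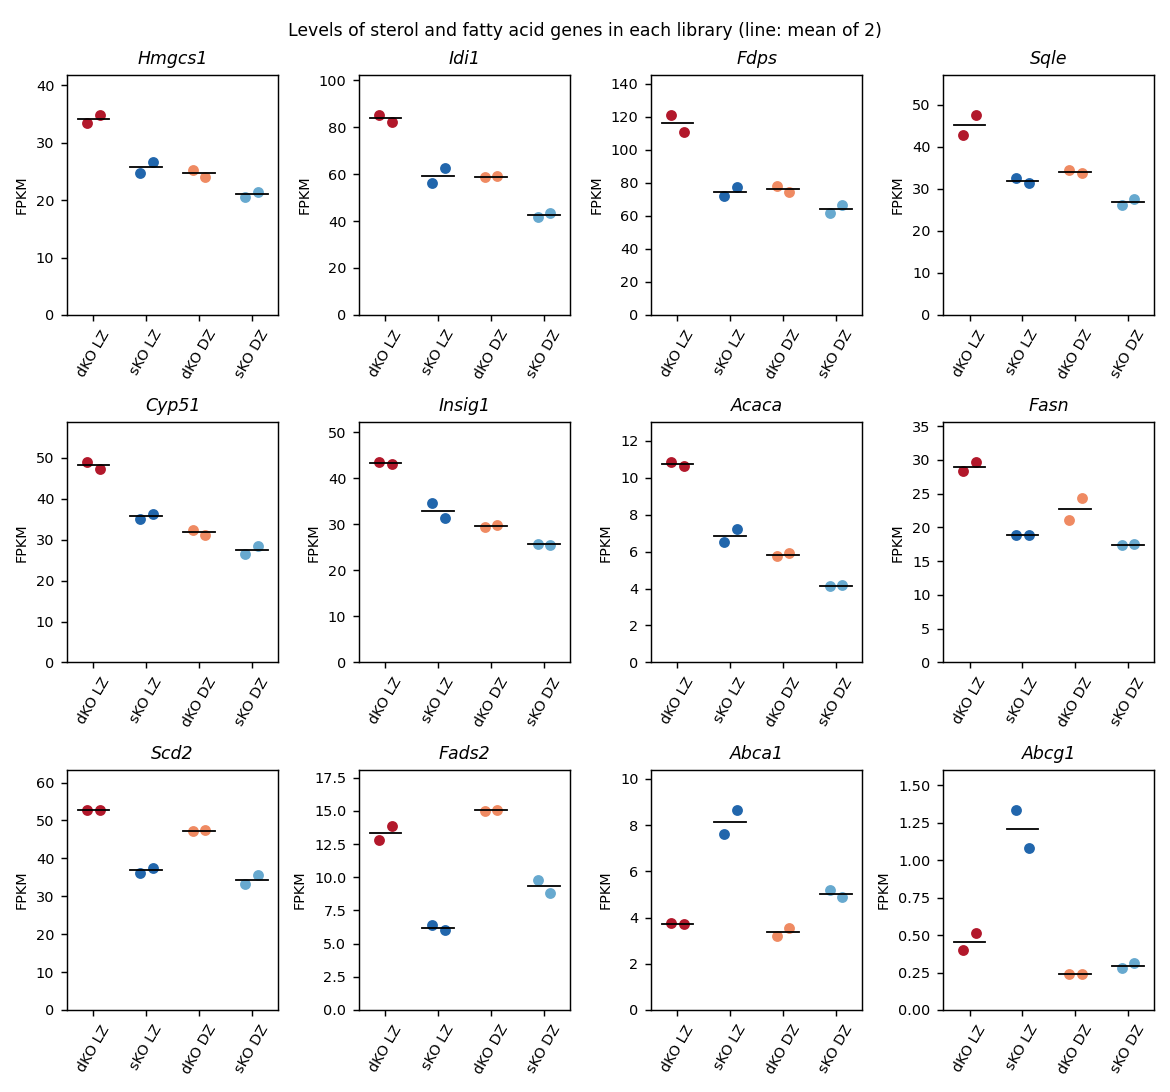
FPKM (y axis, from 0) in each library (points) of dKO LZ, sKO LZ, dKO DZ and sKO DZ (x axis) for 12 members, with the mean of 2 libraries as a line. Hmgcs1, Idi1, Sqle, Acaca, Fasn, Scd2 and Fads2 are higher in dKO than in sKO in both zones, and Abca1 is lower in dKO in both.

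Among the control genes, the transcripts of the SREBP factors themselves did not pass the genotype test, except that Srebf2 was lower in dKO LZ under quantile normalization (-0.11, adjusted p = 0.0446). Srebf2 was at 82.3 and 82.5 FPKM in dKO LZ, against 84.4 and 84.2 FPKM in sKO LZ, and at 71.0 and 70.4 FPKM in dKO DZ, against 71.2 and 73.6 FPKM in sKO DZ. Its difference was -0.03 ± 0.034 in LZ and -0.03 ± 0.034 in DZ. Srebf1 was at 26.3 and 27.8 FPKM in dKO LZ, against 24.6 and 24.0 FPKM in sKO LZ, and at 28.9 and 26.4 FPKM in dKO DZ, against 25.6 and 25.2 FPKM in sKO DZ. Its dKO libraries lay above its sKO libraries in both zones, by 0.15 ± 0.055 in LZ (adjusted p = 0.0868) and 0.12 ± 0.055 in DZ (adjusted p = 0.230). Messenger RNA does not measure how much of either protein is cut and active.

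Insig1 is both a retention factor and a target of SREBP. It was at 43.5 and 43.0 FPKM in dKO LZ, against 34.6 and 31.3 FPKM in sKO LZ, and rose by 0.39 ± 0.052 (adjusted p = 0.00343). In DZ it was at 29.4 and 29.8 FPKM in dKO, against 25.8 and 25.4 FPKM in sKO, a difference of 0.20 ± 0.052 that did not pass (adjusted p = 0.0574). The escort gene Scap was at 13.5 and 14.3 FPKM in dKO LZ, against 11.8 and 12.3 FPKM in sKO LZ, and rose by 0.19 ± 0.057 (adjusted p = 0.0464), a call lost in 13 of 17 alternatives, the removal of any 1 library included, with adjusted p up to 0.201. In DZ Scap was at 10.8 and 10.5 FPKM in dKO, against 10.2 and 10.9 FPKM in sKO, and the genotypes overlapped. Stard4, a sterol carrier (15.4 to 20.2 FPKM), and Nr1h2, which encodes LXR beta (32.4 to 37.5 FPKM), did not pass the genotype test in either zone, except that Stard4 was higher in LZ without sKO LZ replicate 2 (0.32, adjusted p = 0.0215). Hmgcs1, Scap, Srebf1, Elovl1 and Acss2 also share up to 785 exonic bases with genes on the opposite strand.

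The sterol exporters went the other way. Abca1, which passes cholesterol to apolipoproteins at the cell surface, was at 3.75 and 3.71 FPKM in dKO LZ, against 7.62 and 8.67 FPKM in sKO LZ, a ratio of means of 0.458. It fell in LZ (-0.95 ± 0.082, adjusted p = 0.00110). Its DZ values were 3.19 and 3.55 FPKM in dKO, against 5.20 and 4.87 FPKM in sKO, a ratio of 0.670, and it fell there too (-0.47 ± 0.082, adjusted p = 0.0197). Every dKO library was below every sKO library of its zone, as for 3114 of 10610 tested genes in LZ and 2787 in DZ. Abcg1, the exporter to lipoprotein particles, was at 0.400 and 0.513 FPKM in dKO LZ, against 1.34 and 1.08 FPKM in sKO LZ, a ratio of 0.377. It fell in LZ (-0.60 ± 0.11, adjusted p = 0.00807). Since only the sKO LZ libraries reached 1 FPKM, its LZ difference is given as a description. Values in DZ were 0.238 and 0.243 FPKM in dKO, against 0.281 and 0.311 FPKM in sKO.

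The fatty acid enzymes had a larger median than the sterol enzymes, 0.41 in LZ and 0.27 in DZ. Of the 11, 7 rose and 1 fell in LZ, where 18.4% of all tested genes rose and 12.7% fell. In DZ, 5 of the 11 rose and 0 fell, where 6.63% of all genes rose and 5.23% fell. The summed FPKM of the 11 enzymes was 329 to 330.4 in dKO LZ, against 284 to 287 in sKO LZ (ratio 1.16). It was 261 to 268 in dKO DZ, against 229 to 232 in sKO DZ (ratio 1.15). Scd1 alone made up over 70 FPKM of that sum in every library.

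Acly, which makes cytosolic acetyl-CoA from citrate, was at 58.6 and 59.2 FPKM in dKO LZ, against 51.1 and 49.9 FPKM in sKO LZ. It rose by 0.22 ± 0.040 in LZ (adjusted p = 0.00859), with an adjusted p of 0.0517 without dKO LZ replicate 2. In DZ it was at 49.0 and 51.6 FPKM in dKO, against 47.3 and 47.1 FPKM in sKO, and its difference of 0.09 did not pass. Acss2, which makes acetyl-CoA from acetate, was low (0.967 to 1.83 FPKM) and did not pass. Acaca, the carboxylase of the rate-limiting step, was at 10.8 and 10.6 FPKM in dKO LZ, against 6.51 and 7.20 FPKM in sKO LZ, a ratio of 1.57. Its DZ values were 5.74 and 5.92 FPKM in dKO, against 4.14 and 4.19 FPKM in sKO, a ratio of 1.40. It rose by 0.58 ± 0.064 in LZ (adjusted p = 0.00191) and 0.40 ± 0.064 in DZ (adjusted p = 0.0143). Fasn, fatty acid synthase, was at 28.3 and 29.7 FPKM in dKO LZ, against 18.8 and 18.9 FPKM in sKO LZ, and at 21.1 and 24.3 FPKM in dKO DZ, against 17.3 and 17.6 FPKM in sKO DZ. It rose by 0.60 ± 0.068 in LZ (adjusted p = 0.00211) and 0.36 ± 0.068 in DZ (adjusted p = 0.0235). A processed pseudogene shares 99.2% identity with Acaca over 6118 bases, so its level is uncertain to that extent.

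The desaturases held both the largest rise and the only fall of this arm in LZ. Fads2, the first desaturase of polyunsaturated fatty acids, was at 12.8 and 13.9 FPKM in dKO LZ, against 6.41 and 5.99 FPKM in sKO LZ, a ratio of 2.15. Values in DZ were 15.0 and 15.1 FPKM in dKO, against 9.79 and 8.84 FPKM in sKO, a ratio of 1.62. It rose by 0.99 ± 0.070 in LZ (adjusted p = 0.000887) and 0.64 ± 0.070 in DZ (adjusted p = 0.00584), the largest rise of the 36 members in each zone. Fads1, a later desaturase of the same route, was at 8.34 and 8.00 FPKM in dKO LZ, against 6.22 and 5.58 FPKM in sKO LZ, and rose by 0.41 ± 0.065 (adjusted p = 0.00551). In DZ it was at 8.97 and 8.64 FPKM in dKO, against 7.40 and 7.29 FPKM in sKO, a difference of 0.23 ± 0.065 that did not pass (adjusted p = 0.0690).

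The stearoyl-CoA desaturases, which make monounsaturated fatty acids, differed from each other. Scd2 was at 52.8 and 52.8 FPKM in dKO LZ, against 36.1 and 37.5 FPKM in sKO LZ, and at 47.2 and 47.4 FPKM in dKO DZ, against 33.1 and 35.5 FPKM in sKO DZ. It rose by 0.51 ± 0.046 in LZ (adjusted p = 0.00121) and 0.45 ± 0.046 in DZ (adjusted p = 0.00499). Scd1 was at 105 and 102 FPKM in dKO LZ, against 112 and 114 FPKM in sKO LZ, and fell by 0.13 in LZ (adjusted p = 0.0366), a ratio of 0.913. That call was lost in 9 of 17 alternatives, among them without either library of sKO LZ, dKO LZ or dKO DZ, with adjusted p up to 0.170. In DZ Scd1 was at 70.3 and 72.4 FPKM in dKO, against 71.6 and 70.1 FPKM in sKO, and the genotypes overlapped. Scd1 and Scd2 share 95.5% identity over 623 bases, where reads could be assigned to either.

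The elongases follow. Elovl6, which lengthens palmitate, was at 2.15 and 2.59 FPKM in dKO LZ, against 1.09 and 1.23 FPKM in sKO LZ, and rose by 0.64 ± 0.10 (adjusted p = 0.00566), a ratio of 2.04 at a low level. Its DZ values were 2.34 and 2.60 FPKM in dKO, against 1.58 and 1.78 FPKM in sKO, a difference of 0.37 ± 0.10 that did not pass (adjusted p = 0.0644). A processed pseudogene at 97.4% identity could share its reads. Elovl5, which lengthens polyunsaturated fatty acids, was at 16.3 and 16.9 FPKM in dKO LZ, against 14.4 and 14.6 FPKM in sKO LZ, just outside the threshold (0.19 ± 0.057, adjusted p = 0.0503). In DZ it was at 15.1 and 13.8 FPKM in dKO, against 12.0 and 11.6 FPKM in sKO, and rose by 0.27 ± 0.057 (adjusted p = 0.0326). Elovl1, for very long chains, was at 32.6 and 33.1 FPKM in dKO LZ, against 29.4 and 30.7 FPKM in sKO LZ, and at 24.5 and 24.6 FPKM in dKO DZ, against 23.2 and 26.1 FPKM in sKO DZ. It did not pass the genotype test in either zone.

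The DZ calls depended on single libraries. Of the 12 members called in DZ, 2 were called when dKO DZ replicate 1 was left out and 1 when dKO DZ replicate 2 was. Leaving out sKO DZ replicate 1 gave 3 calls, and leaving out its replicate 2 gave 4. A group left with 1 library was assumed to vary like the others. Without dKO LZ replicate 1 or dKO LZ replicate 2, which enter the DZ test only through the shared spread, 7 members rose in DZ and 1 fell. With only the DZ libraries fitted, 5 rose. Scd2 kept its DZ call in all 17 alternatives, with adjusted p up to 0.0498, and Idi1 and Fads2 lost theirs only without dKO DZ replicate 1 or replicate 2. Cyp51 and Hmgcs1 were the least stable DZ calls, lost in 14 and 12 of 17 alternatives with adjusted p up to 0.228 and 0.235. Elovl5 was lost in 8, Lss in 7, Sc4mol and Abca1 in 5 each, and Sqle, Acaca and Fasn in 4 each. In LZ, the number of members called was 17 to 20 when 1 library was left out.

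Of the 36 members, 10 rose in both zones, Hmgcs1, Idi1, Sqle, Lss, Cyp51, Sc4mol, Acaca, Fasn, Scd2 and Fads2. Over all tested genes, 18.4% rose in LZ and 6.63% in DZ, and those rising in both zones were not counted. In LZ alone 9 members passed upwards, and in DZ alone Elovl5 did. The split does not show that a gene responds differently in the 2 zones. The interaction, the genotype difference in LZ minus that in DZ, was tested with limma and passed for 0 of 36 members, while 0.0283% of all genes passed. At an unadjusted p under 0.05 it passed for 11 of 36 members and 1232 of 10610 genes. It was positive for 29 of 36 members and for 5659 of all genes. The largest positive values were Fdps (0.38 ± 0.092, adjusted p = 0.336) and Fdft1 (0.37 ± 0.077, adjusted p = 0.312). On the negative side were Abcg1 (-0.54 ± 0.15) and Abca1 (-0.48 ± 0.12, adjusted p = 0.336). Abcg1 passed the filter only through the sKO LZ libraries, where it was high, so its value is a description.

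Markers of cell division moved with genotype as well. In LZ, 7 of 12 mitosis genes rose in dKO and 0 fell, with a summed level of 874 to 886 FPKM in dKO LZ, against 698 to 768 FPKM in sKO LZ. In DZ, 2 of 12 rose, with 1202 to 1215 FPKM in dKO DZ, against 1082 to 1128 FPKM in sKO DZ. Over all tested genes, 18.4% rose and 12.7% fell in LZ, and 6.63% rose and 5.23% fell in DZ. The part of the mitosis genes in the rise of the sterol and fatty acid genes was not tested. Myeloid markers were uneven, with 13 genes summing to 120.3 and 245 FPKM in the dKO LZ libraries, against 129 and 165 FPKM in sKO LZ, 107 to 109.8 FPKM in dKO DZ and 129 to 135 FPKM in sKO DZ. Of the 7 tested, 1 rose and 2 fell in dKO LZ. S100a8 was at 5.51 and 53.1 FPKM in dKO LZ, against 3.03 and 21.7 FPKM in sKO LZ. Lyz2 was at 4.91 and 24.8 FPKM in dKO LZ, against 0.946 and 5.85 FPKM in sKO LZ. For both genes, replicate 2 was the higher LZ library in each genotype. Mpeg1 was at 7.34 and 8.57 FPKM in dKO LZ, against 10.5 and 14.7 FPKM in sKO LZ. Cst3 was also lower in dKO LZ (91.0 and 91.7 FPKM, against 111 and 99.1 FPKM). C1qb was at 0 in all libraries, and C1qa and C1qc were at 0 in 7 of 8. Without dKO LZ replicate 2, 15 members rose in LZ and 2 fell. T cell markers summed to 63.1 to 65.1 FPKM in dKO LZ, 53.8 to 58.9 in sKO LZ, 32.8 to 35.5 in dKO DZ and 34.2 to 35.4 in sKO DZ, nearly all of it Lck, with Cd3g at 0 in 7 libraries. Of the plasma cell markers, 6 of 7 were in the table, and they summed to 367.6 to 367.9 FPKM in dKO LZ, 309 to 325 in sKO LZ, 459.7 to 472 in dKO DZ and 431 to 449 in sKO DZ, with Tnfrsf17 at 0 in all 8 libraries. Igj, the joining chain of antibodies, made up most of that sum and rose in dKO LZ (0.24 ± 0.038, adjusted p = 0.00549). Irf4 fell in dKO DZ (-0.51 ± 0.12, adjusted p = 0.0417). Sdc1, the plasma cell surface marker CD138, was at 0.606 and 0.505 FPKM in dKO LZ, against 0.0666 and 0.0637 FPKM in sKO LZ, and at 0.156 and 0.273 FPKM in dKO DZ, against 0.0410 and 0.141 FPKM in sKO DZ, too low to be tested.

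The sorted populations' own markers moved with genotype too. Both LZ markers fell in dKO LZ, Cd86 (-0.32, adjusted p = 0.0238) and Cd83 (-0.20, adjusted p = 0.0440), and Cd83 also fell in dKO DZ (-0.42, adjusted p = 0.0101). Of 10 B cell and germinal centre markers, 5 fell and 1 rose in dKO LZ, where 12.7% of all tested genes fell and 18.4% rose. In dKO DZ, 4 of these markers fell and 1 rose, where 5.23% of all genes fell and 6.63% rose. The part of these markers in the genotype differences of the members was not tested. Stromal markers summed to under 0.05 FPKM in each library.

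Zone was a second axis of variation. In dKO, 23 of the 36 members were higher in LZ and 1 was lower, while 18% of all genes were higher and 16.1% lower. In sKO, 18 of 36 were higher and 3 lower, while 15.2% of all genes were higher and 16.1% lower. The median was 0.23 in dKO and 0.20 in sKO, against 0.0065 and -0.0045 over all genes. The sterol sum was 1.35-fold higher in LZ than in DZ in dKO and 1.18-fold higher in sKO. Mitosis genes lay on the opposite side, with 8 of 12 lower in LZ than in DZ in dKO and 12 of 12 in sKO. Of the 7 myeloid markers tested, 5 were higher in LZ and 0 lower in dKO, and 1 was higher and 1 lower in sKO. Lyz2, S100a8, Tyrobp and Fcer1g reached 1 FPKM only in LZ libraries. They passed the filter through the zone where they were high, so these counts are a description. The part of the mitosis and myeloid markers in the zone differences was not tested. In sKO, the members called numbered 12 with only its own libraries fitted, 10 higher and 2 lower.

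**Figure D4:**
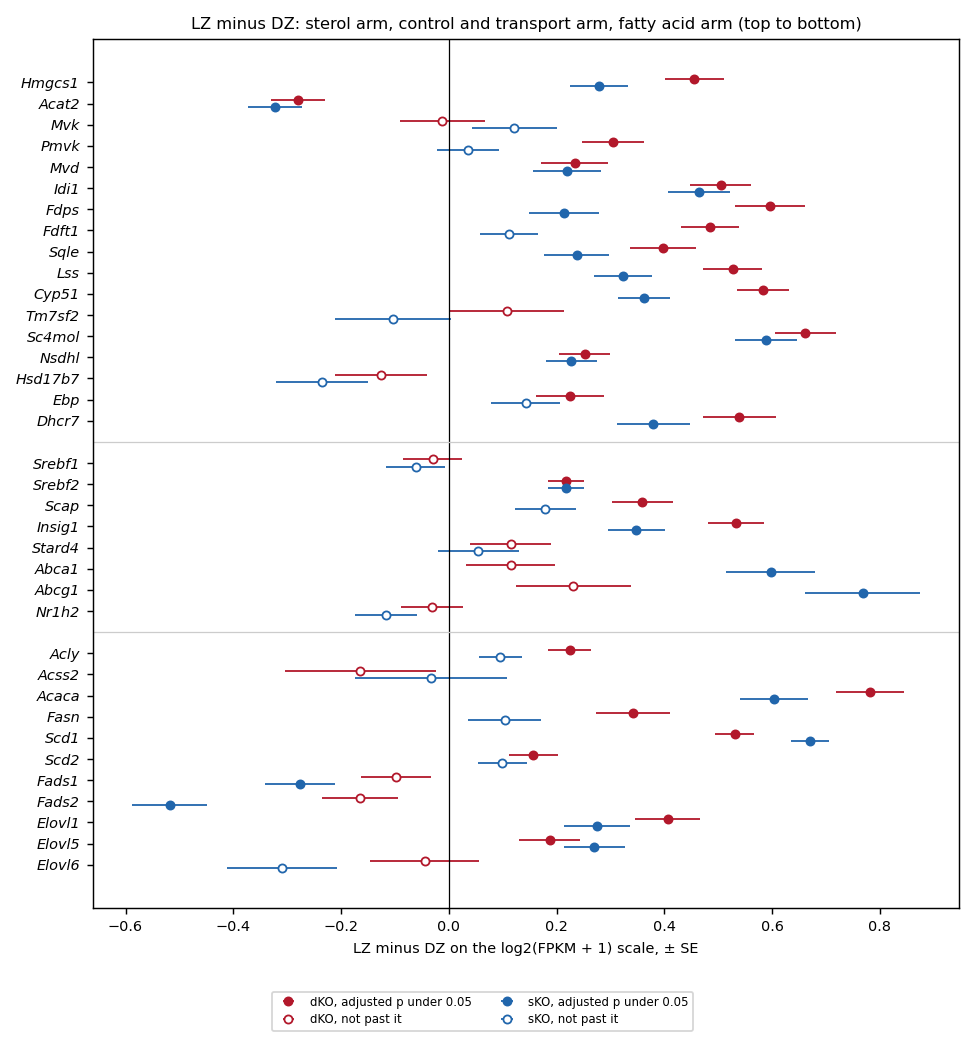
Difference LZ minus DZ on the log2(FPKM + 1) scale (x axis, point ± SE) for the 36 members (y axis) in dKO and in sKO, n = 2 libraries per group. Filled points are past an adjusted p of 0.05. Of the sterol enzymes, 14 of 17 lie right of 0 in each genotype. Over all 10610 tested genes, the difference is positive for 5419 in dKO and 5226 in sKO. Left of 0 lie 9 of the 36 members in each genotype, Acat2, Fads1 and Fads2 among them. Acat2 is past the threshold in both genotypes, and Fads1 and Fads2 only in sKO.

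By arm, 13 of 17 sterol enzymes were higher in LZ in dKO and 1 was lower, where 18% of all genes were higher and 16.1% lower. In sKO, 10 of these enzymes were higher and 1 lower, where 15.2% of all genes were higher and 16.1% lower. Sc4mol had the largest zone difference of these enzymes, 0.66 ± 0.057 in dKO (adjusted p = 0.000507) and 0.59 ± 0.057 in sKO (adjusted p = 0.000975). Cyp51 differed by 0.58 in dKO and 0.36 in sKO, and Idi1 by 0.50 and 0.46 in the same order. Hmgcs1, Mvd, Fdps, Sqle, Lss, Nsdhl and Dhcr7 were also higher in LZ in both genotypes, by 0.23 to 0.60 in dKO and 0.21 to 0.38 in sKO. Pmvk (0.30), Fdft1 (0.49) and Ebp (0.23) passed in dKO. In sKO their differences were 0.04, 0.11 and 0.14 and did not pass. Acat2 was lower in LZ in both, with -0.28 ± 0.050 in dKO (adjusted p = 0.00729) and -0.32 ± 0.050 in sKO (adjusted p = 0.00501). In dKO, the call on Ebp was lost in 9 of 17 alternatives (adjusted p up to 0.173) and that on Mvd in 5 (up to 0.147), in each case without any 1 of the 4 dKO libraries. Pmvk and Nsdhl lost theirs in 2 and Acat2 in 1. In sKO, the call on Fdps was lost in 11 alternatives (up to 0.185), on Mvd in 11 (up to 0.155), on Sqle in 7 (up to 0.116), on Nsdhl in 3 and on Hmgcs1 in 2.

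Of the control genes, Srebf2 was higher in LZ by 0.22 ± 0.034 in dKO (adjusted p = 0.00415) and 0.22 ± 0.034 in sKO (adjusted p = 0.00493), while Srebf1 did not pass in either. Insig1 was higher in LZ by 0.53 ± 0.052 in dKO and 0.35 ± 0.052 in sKO. Scap passed in dKO (0.36, adjusted p = 0.00437) and not in sKO (0.18, adjusted p = 0.0541). Abca1 was higher in LZ in sKO (0.60 ± 0.082, adjusted p = 0.00325), and its difference in dKO did not pass (0.11 ± 0.082, adjusted p = 0.327). Abcg1 differed by 0.77 ± 0.11 in sKO, through the same libraries that let it pass the filter.

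In the fatty acid arm, 7 of 11 were higher in LZ in dKO and 0 lower, where 18% of all genes were higher and 16.1% lower. In sKO, 4 of the 11 were higher and 2 lower, where 15.2% of all genes were higher and 16.1% lower. Acaca had the largest zone difference of all members in dKO (0.78 ± 0.064, adjusted p = 0.000409), and in sKO it was 0.60 ± 0.064 (adjusted p = 0.00123). Scd1 was higher in LZ by 0.53 ± 0.036 in dKO and 0.67 ± 0.036 in sKO, Elovl1 by 0.41 and 0.27, and Elovl5 by 0.19 and 0.27. Acly (0.22), Fasn (0.34) and Scd2 (0.16) passed in dKO. In sKO they differed by 0.10, 0.10 and 0.10, and none of the 3 passed. Fads2 and Fads1 were lower in LZ in sKO, with differences of -0.52 ± 0.070 (adjusted p = 0.00294) and -0.28 ± 0.065 (adjusted p = 0.0212). In dKO they differed by -0.16 and -0.10, which did not pass. Elovl6 lay on the same side in sKO (-0.31, adjusted p = 0.0611) and did not pass in either genotype. The dKO call on Elovl5 was lost in 12 of 17 alternatives (adjusted p up to 0.227), on Scd2 in 6 (up to 0.155), and on Acly and Fasn in 1 each. The sKO call on Fads1 was lost in 4 (up to 0.0864), and on Elovl1 and Elovl5 in 3 each.

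Beyond the members, 17 of 20 other sterol pathway genes and 17 of 26 other fatty acid genes were tested. In LZ, 4 of the 17 sterol genes rose in dKO and 4 fell, and 3 of the 17 fatty acid genes rose and 1 fell, where 18.4% of all tested genes rose and 12.7% fell. In DZ, 2 sterol genes rose and 1 fell, and 1 fatty acid gene rose and 0 fell, where 6.63% of all genes rose and 5.23% fell. Their medians were 0.09 and 0.11 in LZ, and 0.02 and 0.05 in DZ, for the sterol and the fatty acid genes. Tmem97, a membrane protein regulated by SREBP, was at 27.9 and 26.8 FPKM in dKO LZ, against 13.7 and 13.9 FPKM in sKO LZ (0.94 ± 0.070, adjusted p = 0.000914), and at 20.2 and 19.0 FPKM in dKO DZ, against 12.2 and 14.0 FPKM in sKO DZ (0.55 ± 0.070, adjusted p = 0.00841). It rose in both zones.

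Cyp27a1, a sterol hydroxylase that makes an oxysterol, was at 4.25 and 4.65 FPKM in dKO LZ, against 8.11 and 9.80 FPKM in sKO LZ, and at 4.30 and 3.97 FPKM in dKO DZ, against 7.14 and 7.79 FPKM in sKO DZ. It fell in both zones, with -0.87 ± 0.099 in LZ (adjusted p = 0.00212) and -0.72 ± 0.099 in DZ (adjusted p = 0.0100). Mylip, a ubiquitin ligase that LXR switches on, was at 11.6 and 10.6 FPKM in dKO LZ, against 18.4 and 16.6 FPKM in sKO LZ, and fell (-0.61 ± 0.067, adjusted p = 0.00191). Cpt1a, which admits fatty acids to mitochondria for oxidation, was at 21.1 and 22.6 FPKM in dKO LZ, against 27.9 and 28.2 FPKM in sKO LZ, and fell (-0.35 ± 0.046, adjusted p = 0.00319). In DZ these 2 differed by -0.21 and -0.16, which did not pass. Slc25a1, the citrate carrier of mitochondria, rose in both zones. It was at 26.6 and 25.4 FPKM in dKO LZ, against 18.4 and 20.3 FPKM in sKO LZ (0.41 ± 0.075, adjusted p = 0.00906), and at 22.1 and 19.8 FPKM in dKO DZ, against 15.3 and 16.6 FPKM in sKO DZ (0.37 ± 0.075, adjusted p = 0.0283). Sc5d, a late sterol desaturase, rose in both zones as well. It was at 27.8 and 28.5 FPKM in dKO LZ, against 22.9 and 23.0 FPKM in sKO LZ (0.28 ± 0.048, adjusted p = 0.00732), and at 21.3 and 20.1 FPKM in dKO DZ, against 18.2 and 17.3 FPKM in sKO DZ (0.21 ± 0.048, adjusted p = 0.0434).

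**Figure D5:**
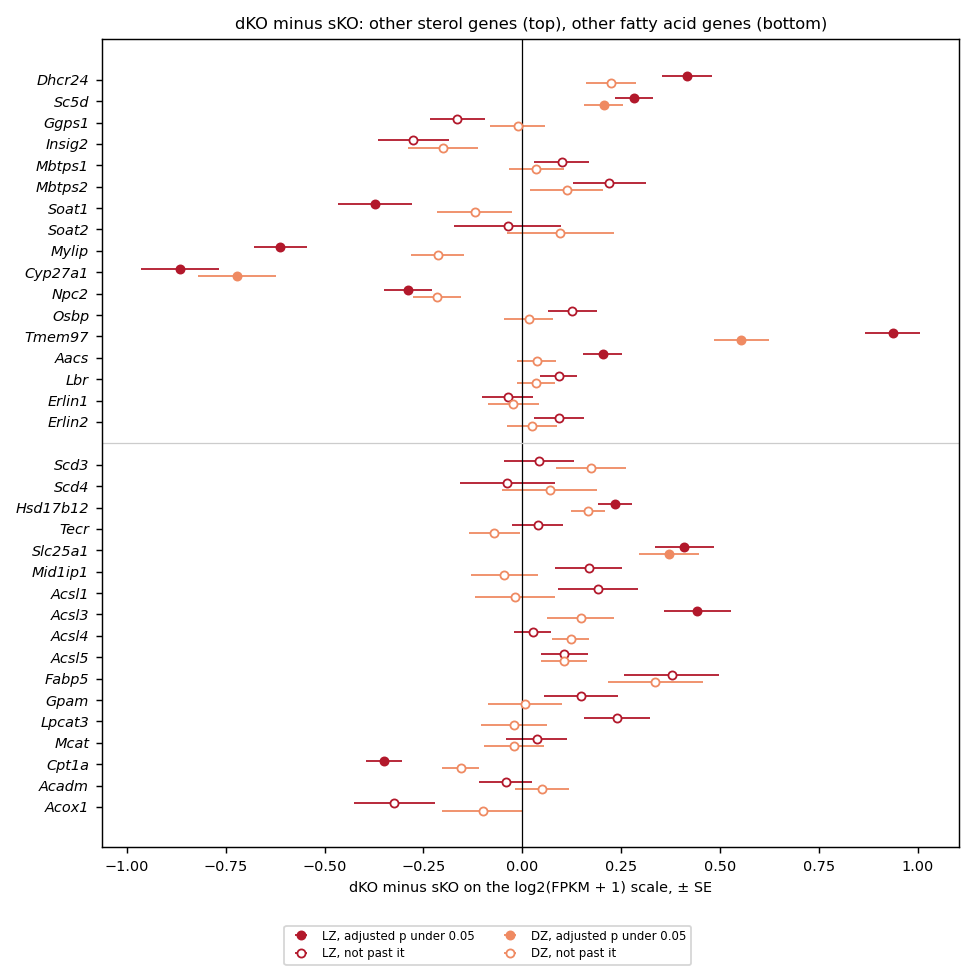
Difference dKO minus sKO on the log2(FPKM + 1) scale (x axis, point ± SE) for the 17 tested other sterol genes and 17 tested other fatty acid genes (y axis), in LZ and in DZ, n = 2 libraries per group. Filled points are past an adjusted p of 0.05. Tmem97 lies farthest to the right and Cyp27a1 farthest to the left.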

How the data were processed

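The deposited table holds 1 FPKM value per gene and library, made by the authors. Its header does not name the unit. FPKM is read from the Cufflinks column name and the values. TopHat2 2.0.8, Cufflinks 2.1.1 and the mm9 build appear among the tools and builds of the submitters' processing notes, with no options. Libraries were made with an NEBNext Ultra RNA kit from RNA of about 30000 cells each, per the labels' protocols. The strand setting is not given in the sources used here. All 8 columns matched a sample (0 unmatched). FPKM gives no read counts, so no interval from depth is given.

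Values were taken as log2(FPKM + 1). Genes reaching 1 FPKM in 2 or more libraries (10610) were fitted with limma (version 3.58.1, R version 4.3.3). The model had 4 group means and a variance prior with an intensity trend (4 residual and 2.46 prior degrees of freedom). Tests were 2-sided, with Benjamini-Hochberg adjustment over all genes within each contrast, at 0.05. The fit was tested on simulated data.

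The members and lists were chosen with earlier results of these data known. Values in every library are given for each member past the threshold in any contrast and for Srebf1, Srebf2, Scap and Insig1. Other pathway genes are named for the 4 smallest p-values in each genotype contrast. Zone, mitosis and B cell markers, and markers of plasma, myeloid, T and stromal cells, were listed to describe the samples. S100a8, Lyz2, Tyrobp, Fcer1g, Mpeg1, Cst3, C1qa, C1qb, C1qc, Lck, Cd3g, Igj, Irf4, Sdc1 and Tnfrsf17 were named after their values were seen. Shared sequence was searched in GENCODE M21 transcripts (at least 95% identity over 200 bases), for gene names only, since its build is not that of the files. Alternatives were other pseudocounts (0.1, 0.5), filters (none, 5 FPKM), scalings, a variance prior without trend, a replicate block, only the libraries compared, and each library left out.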

Additional observations from a re-analysis of the deposited data

Results flagged for a closer look

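Pmvk, phosphomevalonate kinase, was the 1 member whose libraries separated in opposite directions in the 2 zones. Both dKO libraries were above both sKO libraries in LZ and below them in DZ. The difference between the 2 genotype effects was 0.27 on the log2(FPKM + 1) scale and did not pass the test (adjusted p = 0.358, limma), and neither genotype effect passed on its own. How many of all tested genes separated in this way was not counted, so the pattern is given as a description.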

How the results depend on the processing

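No alternative reversed a called difference of a member. For dKO against sKO in LZ, the 22 members called became 17 to 20 when 1 library was left out, 19 with the replicate block, and 18 to 23 under the other settings. In DZ, the 12 became 5 with only the libraries compared, 1 to 13 with 1 library left out, and 8 (7 higher) with the replicate block. For LZ against DZ in sKO, the 21 became 12 with only the libraries compared, 14 to 20 with 1 left out, and 20 with the replicate block. In dKO, the 24 became 18 to 23 and 21. Some members were called only under an alternative: Ebp, Srebf2, Stard4 and Elovl5 for genotype in LZ, Mvd, Fdps, Insig1 and Elovl6 in DZ, and Hsd17b7, Scap, Nr1h2, Acly and Elovl6 for zone in sKO. The interaction called 0 members under every setting run. Over all genes, only the libraries compared gave 2177 calls in LZ (3299 in all 8), 649 in DZ (1258) and 1678 for zone in sKO (3312). Leaving out 1 library gave 1703 to 3158 in LZ, 112 to 1346 in DZ, 2007 to 3864 for zone in dKO (3623), 2006 to 3032 for zone in sKO and 2 to 6 for the interaction (3), which called 5 with no filter on low values. The cause of these shifts was not tested, apart from the fewer libraries by construction. Replicate 1 minus replicate 2 correlated by -0.11 to 0.12 between groups over the tested genes. Such weak correlations cannot show whether same-numbered libraries were paired, so the replicate block is a hint from the numbers only. With 2 libraries per group and unknown depth, members that missed the threshold are not shown to be equal.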
